A study of Mus musculus with 2 samples.

Results

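Alveolar macrophages (AMs) are the resident phagocytes of the air spaces, where they clear surfactant and inhaled particles while lying against the alveolar epithelium. The genes described here are 9 that are better known from that epithelium than from macrophages, namely *Epcam*, *Cdh1*, *Krt19*, *Krt18*, *Krt8*, *Perp*, *Wwtr1*, *Sftpc* and *Sftpa1*, out of 32285 genes listed. They were chosen by name, after their levels and their UMIs per cell in these libraries were known, so that both are given as a description and without a test. The members were looked up by the Ensembl identifier of each symbol, in cell barcodes with at least 500 detected genes and at most 10% mitochondrial UMIs (unique molecular identifiers).

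AMs, defined in the study as autofluorescent CD45+ cells that carry Siglec-F and F4/80, were sorted by flow cytometry from the lungs of C57BL/6 mice whose age is labelled as 10 postnatal weeks, and droplet libraries with 3′ capture were made from them. The Control-AM library came from vehicle-control mice and the Tumor-AM library from mice in which Lewis lung carcinoma (LLC) cells, a mouse lung carcinoma line, had been placed in the lung. There was 1 library per condition, and how many mice went into each was not used here. Cells are not replicates of a condition, so no test between conditions was possible, and library batch and tumor cannot be told apart. The filter kept 6185 of 8485 Control-AM barcodes, with 64850143 UMIs and a median of 10370 per barcode, and 7666 of 9175 Tumor-AM barcodes, with 68801889 UMIs and a median of 8264. Levels are UMIs of a gene per 1000000 UMIs of the same barcodes (CPM), with exact 95% Poisson intervals in parentheses. Ratios and shares carry exact binomial intervals, and all intervals cover counting error only. A difference of 2-fold or more is what is called higher or lower below. The labelled cell type was checked on 12 AM markers. *Chil3* (chitinase-like protein 3) stood at 11657 CPM in Control-AM and 10519 CPM in Tumor-AM, and all 12 AM markers were above 10 CPM in both. The libraries shared 25 barcode sequences, of which 17 passed the filter in both.

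The members belong to distinct parts of the epithelial program. EpCAM and E-cadherin, the product of *Cdh1*, join neighbouring cells, and E-cadherin holds its partner through catenins. Keratins 8, 18 and 19 build the intermediate filaments of simple epithelia, where a type II keratin such as keratin 8 pairs with a type I keratin such as keratin 18 or 19. PERP is a membrane protein of the PMP22 family that is found in desmosomes and is induced by p53. *Wwtr1* encodes TAZ, a coactivator that the Hippo kinases restrain and that acts through TEAD factors. Surfactant proteins C and A, encoded by *Sftpc* and *Sftpa1*, are made by alveolar type II (AT2) cells.

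The 9 genes spread from 471 CPM to under 1 CPM, and the keratins lay at both ends. In Control-AM, *Krt19* was at 471 CPM (465 to 476), *Perp* at 111 CPM (108 to 113), *Wwtr1* at 105 CPM (102 to 107), *Epcam* at 53.7 CPM (51.9 to 55.5) and *Cdh1* at 40.8 CPM (39.3 to 42.4). *Sftpc* followed at 16.4 CPM (15.4 to 17.4) and *Sftpa1* at 2.64 CPM (2.26 to 3.06). *Krt8* and *Krt18* each had 10 UMIs in the whole library, or 0.15 CPM (0.074 to 0.28). The Poisson intervals of neighbours in this order did not overlap, apart from those of *Krt8* and *Krt18*, although *Perp* and *Wwtr1* lay within 6 CPM of each other. The UMIs per barcode of *Perp* and *Wwtr1* varied more than Poisson counts do, with a variance over mean of 1.43 and 1.86. Their order is therefore not settled. In Tumor-AM the order was *Krt19* at 189 CPM (186 to 192), *Perp* at 55.5 CPM (53.7 to 57.3), *Wwtr1* at 51.9 CPM (50.2 to 53.6), *Cdh1* at 19.3 CPM (18.3 to 20.4), *Sftpc* at 9.37 CPM (8.67 to 10.1), *Epcam* at 4.39 CPM (3.91 to 4.91), *Sftpa1* at 1.32 CPM (1.06 to 1.62), *Krt8* at 0.58 CPM (0.42 to 0.79) and *Krt18* at 0.15 CPM (0.070 to 0.27). *Epcam* thus fell from place 4 to place 6, below *Cdh1* and *Sftpc*. With 3′ capture each molecule is counted once, so that these levels are not divided by gene length.

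**Figure D1:**
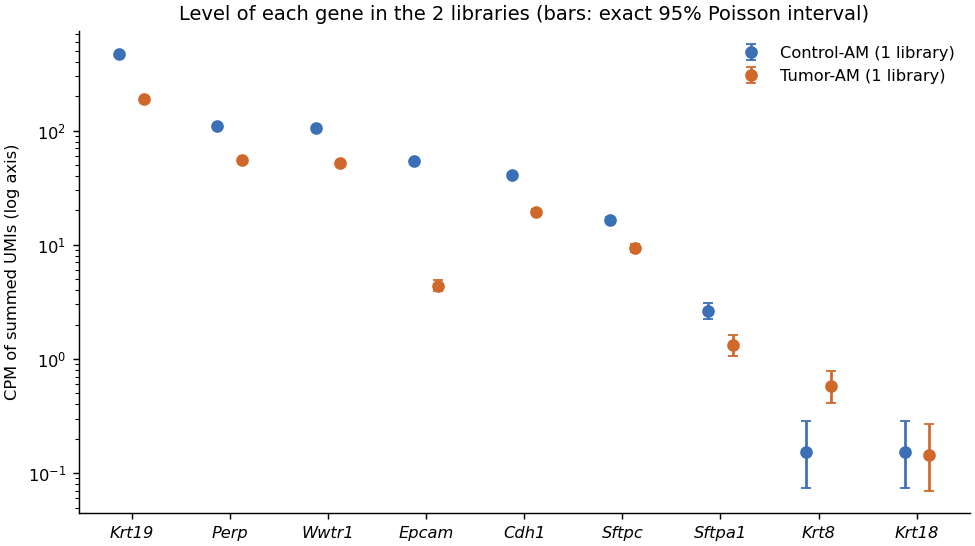
CPM of each gene (log axis) in the Control-AM and the Tumor-AM library, with exact 95% Poisson intervals as bars. Keratin 19 stands near the top in both libraries at 471 and 189 CPM, keratins 8 and 18 lie under 1 CPM, and the widest gap between the libraries is that of *Epcam*.

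All 9 members had the 20 UMIs over both libraries that a ratio required. Between the libraries, 4 of them were lower in Tumor-AM by 2-fold or more (*Epcam*, *Krt19*, *Cdh1* and *Wwtr1*), against 6.91% of the 13581 genes with that many UMIs. The rule drew on this contrast, so the share says nothing further about the members. *Epcam* differed most, with a log2 ratio of Tumor-AM over Control-AM of −3.61 (−3.79 to −3.44), which is 12.2-fold lower and place 25 from the bottom among all genes compared. *Krt19* had −1.31 (−1.34 to −1.28) and *Cdh1* −1.08 (−1.17 to −0.98). *Wwtr1* at −1.01 (−1.07 to −0.95), *Perp* at −0.99 (−1.05 to −0.94) and *Sftpa1* at −0.995 (−1.38 to −0.62) sat at the 2-fold line, and *Sftpc* had −0.80 (−0.95 to −0.66). *Krt18* did not differ detectably, at −0.09 (−1.51 to 1.34) on 10 UMIs in each library. *Krt8* was the 1 member higher in Tumor-AM, at 1.91 (0.89 to 3.08), against 6.02% of all genes, and it rested on 40 UMIs. Of these, 22 lay in a cluster of other cell types described below. Without that cluster the *Krt8* log2 ratio was 1.09 (−0.18 to 2.50), with an interval that takes in 0. The median over the members was −0.995 and that over all genes compared was −0.07. For comparison, the AM markers had a median of −0.23, with *Marco*, a scavenger receptor, the 1 of 12 that was lower by 2-fold or more.

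The gene models in GENCODE vM21 (GRCm38) show where these transcripts come from. *Epcam* (ENSMUSG00000045394) lies on chromosome 17 from 87635979 to 87651129 on the plus strand, with 10 exons in transcript Epcam-201. *Cdh1* (ENSMUSG00000000303) lies on chromosome 8 from 106603351 to 106670246, plus strand, with 16 exons. *Krt19* (ENSMUSG00000020911) is on chromosome 11 from 100140810 to 100148665, minus strand, with 6 exons. *Krt8* (ENSMUSG00000049382), on chromosome 15 from 101996698 to 102004482, minus strand, and *Krt18* (ENSMUSG00000023043), on chromosome 15 from 102028180 to 102032027, plus strand, are close neighbours. *Perp* (ENSMUSG00000019851) is on chromosome 10 from 18845020 to 18857073, plus strand, with 3 exons, and *Wwtr1* (ENSMUSG00000027803) on chromosome 3 from 57455649 to 57575910, minus strand, with 7. Both surfactant genes are on chromosome 14, *Sftpc* (ENSMUSG00000022097) from 70520949 to 70524081 on the minus strand and *Sftpa1* (ENSMUSG00000021789) from 41131782 to 41136452 on the plus strand. The last exon, from which 3′ capture mostly reads, runs from 87650428 to 87651106 in *Epcam* and from 57455649 to 57459110 in *Wwtr1*. The counted gene that overlaps a member, the antisense Gm36026 at *Krt8*, had 0 UMIs in Control-AM and 1 in Tumor-AM. *Krt8* also has an annotated processed pseudogene, Krt8-ps on chromosome 7, which was not in the count tables, and reads that match both copies could be missed, so the low *Krt8* level is uncertain to that extent.

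The promoters of 5 of the 9 members could be matched in the RefSeq sequences (GRCm38.p6), and the 250 bases before the RefSeq start, which for *Krt8* and *Krt18* lies inside the GENCODE model, are shown for a pair of genes above 50 CPM in Control-AM and a pair near 0. Capitals mark the GC box GGGCGG, the E-box CAGGTG, the TATA box TATAAA and the PU.1 core GAGGAA, searched on both strands.
Epcam, chr17:87635729-87635978, plus strand: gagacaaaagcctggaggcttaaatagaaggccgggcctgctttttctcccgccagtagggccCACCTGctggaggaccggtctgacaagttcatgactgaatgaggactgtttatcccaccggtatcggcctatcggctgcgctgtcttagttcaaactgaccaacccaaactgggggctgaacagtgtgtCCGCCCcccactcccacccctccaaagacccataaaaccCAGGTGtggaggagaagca
Wwtr1, chr3:57575911-57576160, minus strand: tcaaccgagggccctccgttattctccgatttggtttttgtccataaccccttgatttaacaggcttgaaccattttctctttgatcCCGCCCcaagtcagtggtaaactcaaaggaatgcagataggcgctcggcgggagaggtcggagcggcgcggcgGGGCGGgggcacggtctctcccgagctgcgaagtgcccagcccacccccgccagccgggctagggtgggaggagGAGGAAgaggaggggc
Krt8, chr15:102004343-102004592, minus strand: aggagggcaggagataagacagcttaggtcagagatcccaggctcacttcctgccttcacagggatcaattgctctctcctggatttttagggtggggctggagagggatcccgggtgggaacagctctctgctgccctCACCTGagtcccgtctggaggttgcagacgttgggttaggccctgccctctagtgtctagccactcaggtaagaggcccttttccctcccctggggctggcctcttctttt
Krt18, chr15:102027966-102028215, plus strand: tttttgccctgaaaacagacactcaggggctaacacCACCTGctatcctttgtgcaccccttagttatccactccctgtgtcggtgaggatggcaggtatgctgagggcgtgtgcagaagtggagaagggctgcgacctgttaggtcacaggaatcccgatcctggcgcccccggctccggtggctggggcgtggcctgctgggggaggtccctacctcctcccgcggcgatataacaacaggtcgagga
*Epcam* held 1 GC box and 2 E-boxes, *Wwtr1* 2 GC boxes and 1 PU.1 core, and *Krt8* and *Krt18* 1 E-box each. None of the 4 windows held TATAAA. Over all 32851 promoter windows of this length, 32.7% held a GC box, 17.2% an E-box, 12.4% a TATA box and 23.3% a PU.1 core, and no marked motif overlapped another. These matches describe the letters of the windows and are not binding sites.

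How a gene's UMIs were spread over barcodes separated *Krt19* from the rest. In Control-AM, 5394 of 6185 barcodes (87.2%, 86.4 to 88.0) had a *Krt19* UMI, 2651 had 5 or more and 906 had 10 or more, with 31 UMIs in the highest barcode. In Tumor-AM, 3605 of 7666 barcodes (47.0%, 45.9 to 48.2) had 1, 962 had 5 or more, and the highest barcode had 46. Over both libraries together, *Krt19* was the 1 member of 9 with more than 50% of its UMIs in barcodes of at least 5, against 5.17% of all genes. The rule drew on UMIs per cell, so this count is a description. Barcodes of that kind held 78.5% of the *Krt19* UMIs in Control-AM and 57.0% in Tumor-AM.

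*Perp*, *Wwtr1*, *Epcam* and *Cdh1* had fewer UMIs per barcode than *Krt19*. A *Perp* UMI was in 61.2% (60.0 to 62.4) of Control-AM and 31.6% (30.5 to 32.6) of Tumor-AM barcodes, with at most 9 and 8 UMIs in 1 barcode. For *Wwtr1* the shares were 52.5% (51.2 to 53.7) and 26.9% (25.9 to 27.9), with at most 10 and 9 UMIs. *Cdh1* was in 31.3% (30.1 to 32.5) and 14.3% (13.5 to 15.1) of barcodes, with at most 10 and 5 UMIs, and 53% and 67.8% of its UMIs were the only one in their barcode. *Epcam* was in 1843 Control-AM barcodes (29.8%, 28.7 to 31.0), of which 97 had 5 or more and the highest had 15, but in 254 Tumor-AM barcodes (3.31%, 2.92 to 3.74), of which none had more than 3. The Tumor-AM library therefore lacked the high end of *Epcam* as well as most of the positive barcodes.

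*Sftpc* and *Sftpa1* were in fewer barcodes than these 4 in Control-AM, whereas in Tumor-AM *Sftpc* was in more barcodes than *Epcam*. A *Sftpc* UMI was in 11.3% (10.5 to 12.1) of Control-AM and 6.07% (5.54 to 6.62) of Tumor-AM barcodes, with 47.4% and 56.0% of its UMIs being the only one in their barcode. The highest *Sftpc* barcodes had 18 and 12 UMIs, and its mean per positive barcode, 1.52 and 1.39, was above the 1.37 and 1.22 of *Cdh1*. *Sftpa1* was in 2.54% (2.16 to 2.96) and 1.07% (0.85 to 1.33) of barcodes, 86.5% and 82.4% of its UMIs were single, and no barcode had more than 4.

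**Figure D2:**
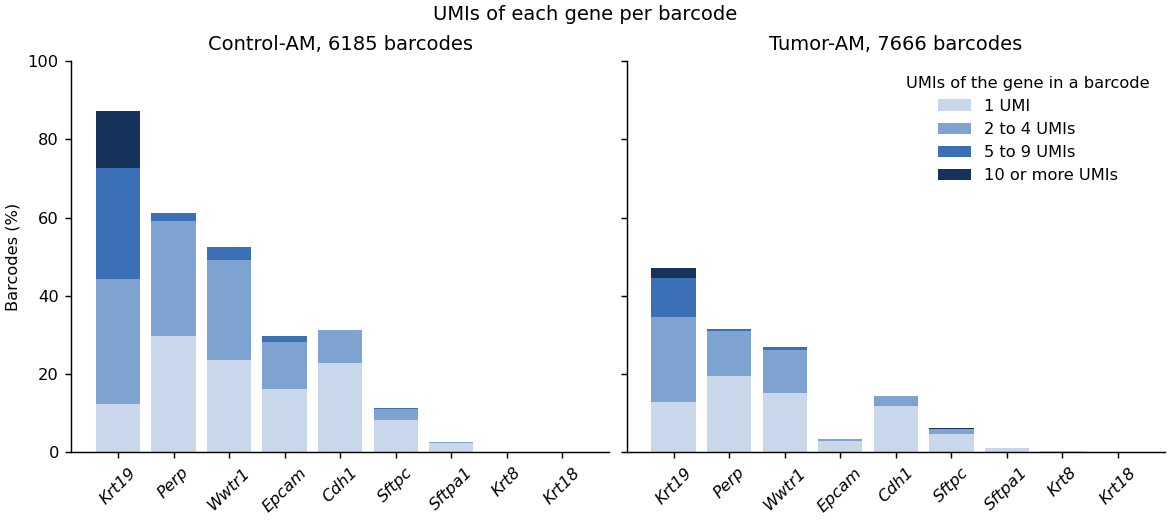
Share of barcodes (percent) with 1, 2 to 4, 5 to 9 and 10 or more UMIs of each gene, for the 6185 Control-AM and the 7666 Tumor-AM barcodes. *Krt19* alone has a broad band of 10 or more UMIs (906 barcodes in Control-AM and 195 in Tumor-AM), and the *Epcam* column shrinks from 29.8% to 3.31%.

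To compare shares at equal depth, each barcode was thinned to 3800 UMIs, which left out 595 Control-AM and 729 Tumor-AM barcodes below that depth. Thinned, *Krt19* was in 74.6% (73.4 to 75.7) of Control-AM and 36.5% (35.4 to 37.6) of Tumor-AM barcodes, *Perp* in 34.5% (33.2 to 35.7) and 17.8% (16.9 to 18.8), and *Wwtr1* in 30.0% (28.8 to 31.2) and 15.6% (14.7 to 16.4). *Epcam* was in 16.4% (15.4 to 17.4) and 1.64% (1.36 to 1.97), and *Cdh1* in 14.1% (13.2 to 15.1) and 7.14% (6.54 to 7.77). For all 5 the Control-AM share was above the Tumor-AM share at this depth. *Sftpc* was in 5.49% (4.91 to 6.12) and 2.67% (2.30 to 3.07), and *Sftpa1* in 1.16% (0.90 to 1.48) and 0.46% (0.32 to 0.65). The background for a share, in the cluster of other cell types described below, rested on 15 Control-AM and 26 Tumor-AM barcodes after thinning. In the Tumor-AM part, 0 of 26 had a *Krt19*, *Epcam*, *Cdh1* or *Sftpc* UMI, which allows shares of up to 11.5% when a count of 0 is read as up to 3 (exact upper bound 13.2%). The Tumor-AM share of *Krt19* lay above both limits, and those of *Epcam*, *Cdh1* and *Sftpc* lay below them. For any share that small, 26 barcodes are too few to tell it from background, so the comparison decides nothing for these genes. *Perp* was in 1 of the 26 (3.85%, 0.097 to 19.6), an interval that takes in its Tumor-AM share. *Wwtr1* was in 3 (11.5%, 2.45 to 30.2). The Tumor-AM part of that cluster carried *Wwtr1* itself, at 74.2 CPM unthinned, so it gives no background for this gene. In the Control-AM part, 5 of the 15 barcodes had *Krt19* (33.3%, 11.8 to 61.6), below its Control-AM share. *Perp* and *Wwtr1* were in 3 each (20%, 4.33 to 48.1), and *Epcam* and *Cdh1* in 1 each (6.67%, 0.17 to 31.9). These intervals take in the Control-AM shares of the 4 genes, which 15 thinned barcodes cannot tell from background. *Sftpc* and *Sftpa1* were in 0 of the 15. The Control-AM barcodes of that cluster still held *Chil3* at 4153 CPM, against 555 CPM in the Tumor-AM ones. Unthinned, the median depth of that cluster was 5059 UMIs. Its unthinned *Perp* level was 45.9 CPM (16.8 to 99.9) in Control-AM and 4.79 CPM (0.58 to 17.3) in Tumor-AM, below the library levels. So were *Wwtr1* in Control-AM, at 45.9 CPM (16.8 to 99.9), and *Cdh1* in Tumor-AM, at 2.39 CPM (0.061 to 13.3). For *Epcam* and *Sftpc* in both parts, *Cdh1* in Control-AM and *Wwtr1* in Tumor-AM, the intervals overlapped those of the library.

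Free RNA adds a like number of UMIs to each droplet, whatever the RNA of the cell in it, so the members were also counted in the barcodes left out by the filter. These 2300 Control-AM and 1509 Tumor-AM barcodes had medians of 1002 and 1067 UMIs, and 2184 and 1423 of them were over the mitochondrial limit. *Krt19* dropped with them, from 493 UMIs per 100 kept barcodes to 34.2 per 100 left-out barcodes in Control-AM and from 170 to 12.8 in Tumor-AM. *Perp* dropped from 116 to 7.65 and from 49.8 to 3.45, *Cdh1* from 42.8 to 3.74 and from 17.4 to 1.13, and *Epcam* from 56.3 to 4.87 and from 3.94 to 0.27. *Wwtr1* dropped less, from 110 to 15.3 and from 46.5 to 7.09, which left its CPM about level, at 105 kept and 117 left out in Control-AM and 51.9 and 55.3 in Tumor-AM. These pooled levels joined unlike parts. *Wwtr1* was at 51.2 CPM in Control-AM barcodes under the gene minimum and at 152 CPM in those over the mitochondrial limit only, and at 31.4 and 65.3 CPM in Tumor-AM. In Control-AM *Epcam* was at 15.5 and 48.9 CPM and *Cdh1* at 12.6 and 37.2 CPM in these groups, so that in the barcodes over the mitochondrial limit only both were at 0.91-fold of their kept level. In the same group of Tumor-AM *Cdh1* was at 9.54 CPM, 0.49-fold of its kept level, and *Epcam* at 2.93 CPM on 4 UMIs, 0.67-fold. *Krt19*, in the order of these groups, was at 264 and 262 CPM in Control-AM and at 117 and 92.4 CPM in Tumor-AM.

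*Sftpc* did not drop. It had 17.2 UMIs per 100 kept and 22.0 per 100 left-out barcodes in Control-AM, and 8.41 and 8.08 in Tumor-AM. Relative to all RNA, this made its CPM 10.3-fold higher in the left-out barcodes of Control-AM, at 169 CPM (155 to 185), and 6.72-fold higher in those of Tumor-AM, at 63.0 CPM (52.3 to 75.2). *Sftpa1* was 10.2-fold higher in the left-out barcodes of Control-AM, at 27 CPM (21.5 to 33.6), and 3.90-fold higher in Tumor-AM, at 5.16 CPM (2.48 to 9.50) on 10 UMIs. Per 100 kept and left-out barcodes, *Sftpa1* had 2.76 and 3.52 UMIs in Control-AM, but 1.19 and 0.66 in Tumor-AM. In barcodes under the gene minimum and over the mitochondrial limit only, the *Sftpc* excess was 11.3-fold and 9.84-fold in Control-AM and 11.2-fold and 4.85-fold in Tumor-AM, and that of *Sftpa1* 16.5-fold and 6.96-fold in Control-AM. *Scgb1a1*, the secretoglobin of airway club cells, went the same way, with 13.8 and 13.1 UMIs per 100 kept and left-out barcodes in Control-AM and 6.30 and 6.63 in Tumor-AM. Over both libraries, 18.2% of 13730 genes had a CPM at least 2-fold higher in the left-out barcodes, and so had *Sftpc*, *Sftpa1* and, on 2 left-out UMIs, *Krt18*. Part of the Control-AM excess sat in few barcodes, since 10 left-out barcodes with 5 or more UMIs held 37.1% of the *Sftpc* UMIs and 1 of them had 116. Without those 10, the left-out level was 107 CPM (95.6 to 119) and 13.9 UMIs per 100 barcodes. Free RNA as the source of the surfactant transcripts was not tested beyond these counts.

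**Figure D3:**
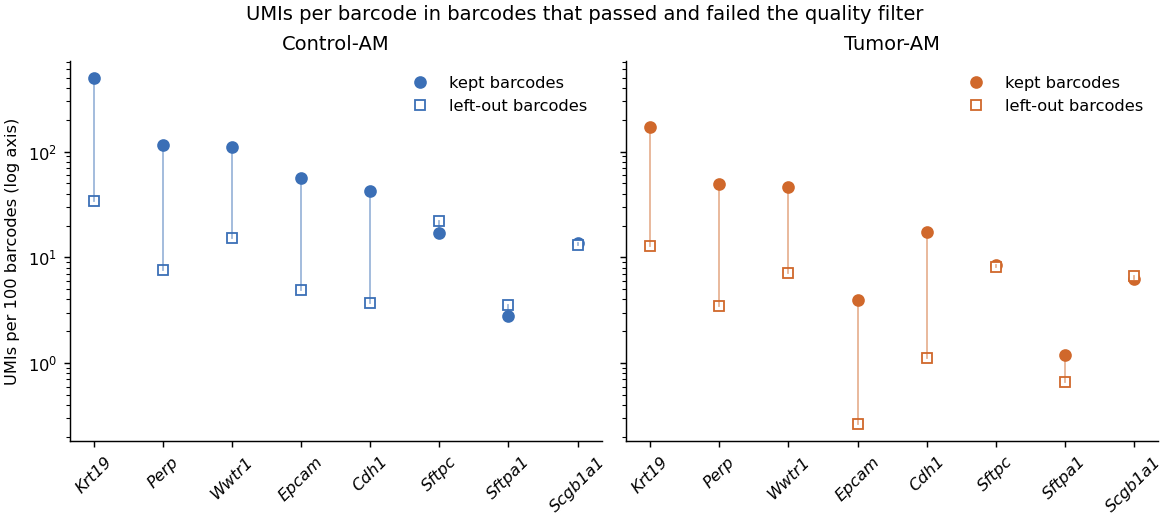
UMIs per 100 barcodes (log axis) in barcodes that passed the filter (filled) and in barcodes left out by it (open), for 7 members and the club cell gene *Scgb1a1* in each library. The pairs lie far apart for *Krt19*, *Perp*, *Wwtr1*, *Epcam* and *Cdh1*. They lie closer for *Sftpc* (17.2 and 22.0 in Control-AM), *Sftpa1* (1.19 and 0.66 in Tumor-AM) and *Scgb1a1*.

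The proportion of *Sftpa1* to *Sftpc* was alike, within its intervals, in barcodes kept and left out. That of *Scgb1a1* in Control-AM depended on barcodes rich in either gene. For every 100 *Sftpc* UMIs, kept Control-AM barcodes had 16.1 *Sftpa1* UMIs (13.6 to 18.9) and left-out ones 16.0 (12.5 to 20.2), while kept Tumor-AM barcodes had 14.1 (11.2 to 17.6) and left-out ones 8.2 (3.83 to 15.6). For *Scgb1a1* these values were 80.2 (73.2 to 87.9) and 59.6 (51.5 to 68.8) in Control-AM, whose intervals did not overlap. In Tumor-AM they were 74.9 (66.4 to 84.4) and 82.0 (62.3 to 108). Without barcodes of 5 or more UMIs of the gene counted, Control-AM had 15.2 *Sftpc* and 11.4 *Scgb1a1* UMIs per 100 kept barcodes. Per 100 left-out barcodes it then had 13.9 and 10.8, so the gap was not seen without those barcodes. Between clusters of Tumor-AM described below, the proportion of *Scgb1a1* differed. It was 141 (112 to 179) in B and G and 58.6 (50.7 to 67.6) in the other AM clusters. *Krt19* had 2873 UMIs per 100 *Sftpc* UMIs in kept and 155 in left-out Control-AM barcodes. Within the kept barcodes, however, depth did not part the surfactant genes from the others as clearly. When the barcodes of each library were divided by depth into 5 equal bins, the UMIs per barcode rose from the shallowest to the deepest bin 4.48-fold over all genes together, 4.78-fold for *Krt19*, 3.18-fold for *Epcam*, 2.84-fold for *Sftpc* and 3.54-fold for *Sftpa1*. In all, 8 of the 9 members were at least 2-fold lower per barcode in the shallowest bin, against 95.2% of all genes.

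Most other markers of AT2 and club cells were near 0 in the kept barcodes. The AT2 markers *Sftpb*, *Sftpd*, *Lamp3* and *Slc34a2* lay between 0.16 and 1.03 CPM in each library, and the club cell markers other than *Scgb1a1* at 0.34 CPM or less. *Abca3* and *Napsa*, which AT2 cells use for lamellar bodies and surfactant processing, were higher, at 32.6 and 31.9 CPM in Control-AM and 35.1 and 40.2 CPM in Tumor-AM. The 2 Control-AM barcodes with 8 or more *Sftpc* UMIs had 132 and 243 *Chil3* UMIs, with 2 and 4 UMIs of the 8 other AT2 markers together. The 4 Tumor-AM barcodes with 7 or more had 255, 82, 63 and 10 *Chil3* UMIs, the last on 1335 UMIs in all, and at most 3 of those markers.

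To see how the members varied among AMs, the barcodes were clustered on 2000 variable genes, with the 9 members left out, so that their levels did not shape the clusters. This gave 20 clusters, of which 16 had at least 50 barcodes and are lettered A to P by size. Clusters B and G were tumor-enriched, with 91.7% and 94.4% Tumor-AM after equal weighting of the libraries, and held 2443 Tumor-AM barcodes (31.9%) and 154 Control-AM barcodes (2.49%). *Il1b*, *Osm* and *Ier3* were among the leading genes of B, and *Apoe*, *Spp1* and *Ifitm3* among those of G. Cluster A was led by genes such as *Abca1*, *Acaa1b* and *Fabp1*, cluster I by the MHC class II genes *H2-Aa*, *H2-Eb1* and *H2-Ab1*, cluster K by *Cxcl9* and the same 3 class II genes, cluster M by the mitotic genes *Cenpf* and *Top2a*, and cluster J by *Fstl1*, *Mmp12* and *Fabp4*. Clusters H, L and O had few UMIs per barcode (medians of 2911, 3544 and 1541). The 61 barcodes of cluster P were led by *Dcn*, *Col3a1* and *Lum* of fibroblasts, with *S100a9* of neutrophils and *Igkc* of B cells but no AM marker among the leading genes, and were taken as other cell types. The clusters A, C to F and H to M, 11 in all, had at least 50 barcodes in each library and are called shared. A cluster that comes mostly from 1 of the libraries may reflect that library.

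In the tumor-enriched clusters of Tumor-AM, *Krt19*, *Perp*, *Wwtr1* and *Epcam* were more than 10-fold lower than in its other clusters. Tumor-AM barcodes of B and G together had 14.8 CPM of *Krt19*, against 280 CPM in the other Tumor-AM clusters, which is 18.9-fold lower, with a log2 ratio of −4.24 (−4.40 to −4.09). *Wwtr1* was at 4.23 against 76.8 CPM, a log2 ratio of −4.18 (−4.48 to −3.89), and *Perp* at 6.22 against 81.2 CPM, a log2 ratio of −3.71 (−3.95 to −3.47). *Epcam* had 6 UMIs there, or 0.25 CPM, against 6.55 CPM, a log2 ratio of −4.69 (−6.15 to −3.55). *Cdh1* had a smaller ratio than these 4, at 14.2 against 22.0 CPM and a log2 ratio of −0.64 (−0.82 to −0.46), and B and G held 25.2% of all Tumor-AM *Cdh1* UMIs but 2.69% of those of *Krt19*. *Sftpc* had −1.11 (−1.40 to −0.82) and *Sftpa1* −0.55 (−1.28 to 0.15). Among 12493 genes with at least 20 Tumor-AM UMIs, 9.27% were at least 2-fold lower in B and G, as were 6 of the 8 members that reached this minimum, *Krt8* among them, and 3.29% were at least 2-fold higher, with no member among them. The *Krt8* call rested on the cluster of other cell types. Without P, a comparison added after the data were seen, *Krt8* had 6 UMIs in B and G and 12 in the other AM clusters (0.25 and 0.27 CPM), a log2 ratio of −0.08 (−1.78 to 1.45), and no longer reached the minimum, so that 5 of 7 members were lower, against 7.75% of 12299 genes. Without the library correction, 4 clusters with 44.7% of the Tumor-AM barcodes were tumor-enriched, and the log2 ratios were nearer to 0, at −3.33 for *Krt19*, −2.66 for *Perp*, −2.58 for *Epcam* and −2.46 for *Wwtr1*. The summed AM markers were at 12622 CPM in B and G of Tumor-AM and at 18061 CPM in its other AM clusters, with all 12 detected in both. That sum was mostly *Chil3*, and 5 of the 12 AM markers were at least 2-fold lower in B and G, with a median log2 ratio of −0.53 over the 12. *Marco* was at 11.8 against 311 CPM, a log2 ratio of −4.72 (−4.90 to −4.55), as large as those of the members, and *Ear1*, *Car4*, *Siglecf* and *Fabp4* had −2.23, −1.97, −1.07 and −1.02. *Krt79* was lower as well, at −2.48 (−2.55 to −2.41). The 5 markers of tumor-associated macrophages and monocytes summed to 18.7 CPM in B and G of Tumor-AM and 10.8 CPM in its other AM clusters. The few Control-AM barcodes of B and G kept more of the members, with *Krt19* at 209 CPM (182 to 239) in B and 198 CPM (161 to 241) in G.

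Outside B and G, *Epcam* was still the member with the largest ratio between the libraries. Without these 2 clusters, a comparison added after the data were seen, its log2 ratio was −3.05 (−3.23 to −2.88), at 54.4 CPM in Control-AM and 6.55 CPM in Tumor-AM. The ratios of the others shrank, to −0.89 (−1.0 to −0.79) for *Cdh1*, −0.77 (−0.80 to −0.74) for *Krt19*, −0.46 (−0.52 to −0.40) for *Perp* and −0.46 (−0.52 to −0.41) for *Wwtr1*, so that *Epcam* was the 1 member at least 2-fold lower, against 4.77% of 13314 genes. The rule drew on the contrast between the libraries, so this share too says nothing further about the members. *Sftpc* had −0.51 (−0.67 to −0.36) and *Sftpa1* −0.82 (−1.25 to −0.40). *Krt8* was the 1 at least 2-fold higher, against 5% of genes, and without P as well it had 8 UMIs in Control-AM and 12 in Tumor-AM, a log2 ratio of 1.08 (−0.33 to 2.58). When the Tumor-AM levels within clusters were weighted by the cluster shares of Control-AM, *Krt19* came to 304 CPM, *Perp* to 87.9 CPM, *Wwtr1* to 87.1 CPM, *Cdh1* to 23.3 CPM and *Epcam* to 6.77 CPM. The difference from Control-AM that was left under this weighting was −0.26 for *Wwtr1* and −2.99 for *Epcam* on the log2 scale.

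Within single clusters, *Epcam* was lower in Tumor-AM wherever it could be compared, and *Perp* and *Wwtr1* were nearly equal in some. *Epcam* could be compared in 10 of the 11 shared clusters, those with more than 3 UMIs in each library, and was lower in Tumor-AM in all 10, by −2.03 to −5.55 on the log2 scale, with intervals below 0 throughout. In the remaining one, L, it had 55 UMIs in Control-AM and 1 in Tumor-AM. Of 9151 genes that could be compared in at least 10 shared clusters, 0.0546% were at least 2-fold lower in each, namely *Epcam*, *Gal*, *Gm8251*, *2010109A12Rik* and *Gm29994*, which are named here because of this result. Each cluster ratio is a part of the contrast between the libraries that the rule drew on. This share is thus no independent support for *Epcam*. In cluster A, *Epcam* was at 58.0 CPM (54.5 to 61.7) in Control-AM and 7.71 CPM (5.43 to 10.6) in Tumor-AM, whereas *Perp* was at 122 CPM (117 to 128) and 111 CPM (102 to 121), and *Wwtr1* at 127 CPM (122 to 132) and 118 CPM (108 to 128). In cluster E, *Perp* was at 111 CPM in both libraries and *Wwtr1* at 116 CPM (109 to 124) and 126 CPM (115 to 137). *Cdh1* had a ratio below 0 in all 11 shared clusters, from −0.50 to −1.40, and was at least 2-fold lower in Tumor-AM in 4 of them. *Krt19* had a ratio below 0 in all 11 as well, from −0.45 to −3.20. It was at least 2-fold lower in 5, while *Perp* was so in 2 and *Wwtr1* in 3. *Epcam*, *Cdh1* and *Krt19* thus had no shared cluster with a ratio above 0, as had 7.89% of the 9151 genes, a share that rests on the same contrast. The AM marker *Marco* was likewise below 0 in every shared cluster, by −0.55 in C to −3.90 in I.

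Cluster I, one of a pair of shared clusters led by MHC class II genes, held both the highest *Epcam* level of Control-AM among the shared clusters and some of the lowest member levels of Tumor-AM. *Epcam* there was at 152 CPM (134 to 172) in 165 Control-AM barcodes and at 3.24 CPM (1.62 to 5.80) in 383 Tumor-AM barcodes, a log2 ratio of −5.55 (−6.57 to −4.69). *Krt19* went from 428 CPM (397 to 460) to 46.5 CPM (39.6 to 54.4), *Perp* from 118 CPM (102 to 136) to 18.9 CPM (14.5 to 24.1), and *Wwtr1* from 61.9 CPM (50.5 to 75.0) to 7.36 CPM (4.77 to 10.9). Of these 5 genes *Cdh1* moved least, from 37.2 CPM (28.6 to 47.7) to 14.1 CPM (10.4 to 18.7). The drop in I was not limited to the members. The AM marker *Marco* had a log2 ratio of −3.90 (−4.29 to −3.53) there, past the −3.20 of *Krt19* and short of that of *Epcam*. *Krt79* had −1.68 (−1.85 to −1.50) and *Chil3* −0.73. Whether the barcodes of I are the same kind of AM in both libraries was not tested. The other such cluster, K, led by *Cxcl9* with *H2-Eb1* and *H2-Aa*, had less *Epcam* in Control-AM, at 61.6 CPM (52.5 to 71.7). Its Tumor-AM level, 4.62 CPM (2.74 to 7.30), overlapped that of I. In K, *Wwtr1* was at 98.4 CPM (86.8 to 111) in Control-AM and 70.3 CPM (62.2 to 79.1) in Tumor-AM. *Krt19* went from 321 CPM (300 to 344) to 98.2 CPM (88.6 to 109) in K, and *Perp* from 89.3 CPM (78.4 to 101) to 44.1 CPM (37.8 to 51.2). The lowest Control-AM levels of *Epcam*, *Cdh1*, *Krt19* and *Perp* among the shared clusters were in J, where *Epcam* was at 8.97 CPM (6.21 to 12.5) and *Krt19* at 292 CPM (275 to 310), but *Wwtr1* was at 103 CPM (92.9 to 114). *Sftpc* varied between 5.41 CPM in I and 28.7 CPM in the low-depth H in Control-AM, and its ratio between the libraries ran from −1.24 to 0.58 over the shared clusters.

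**Figure D4:**
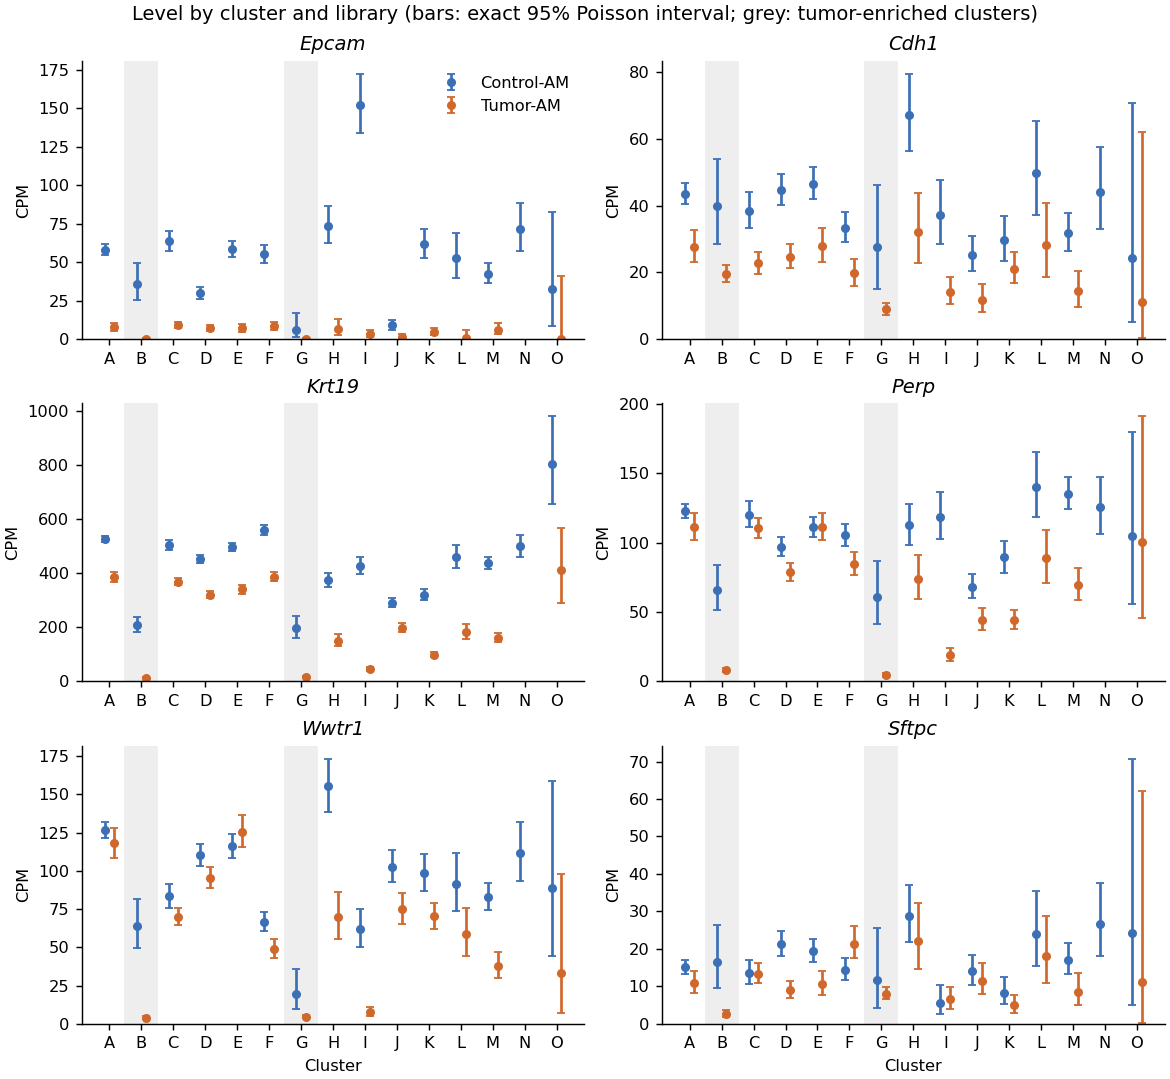
CPM of *Epcam*, *Cdh1*, *Krt19*, *Perp*, *Wwtr1* and *Sftpc* in clusters A to O for each library, with exact 95% Poisson intervals as bars, grey bands for the tumor-enriched clusters B and G, and no point where a library had fewer than 40 barcodes. *Epcam* is low in Tumor-AM in every cluster drawn but O, whereas *Perp* and *Wwtr1* are nearly equal in A and E and drop in B, G and I of Tumor-AM. In O the Tumor-AM interval of *Epcam* reaches 41.2 CPM on 0 UMIs, above the Control-AM level of 32.3 CPM.

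Counted together in thinned barcodes, *Epcam*, *Cdh1*, *Krt19*, *Perp* and *Wwtr1* were detected mostly 1 or 2 at a time in Control-AM. In the AM clusters other than B and G, 20.8% of 5434 Control-AM and 7.91% of 4552 Tumor-AM barcodes had UMIs of 3 or more of the 5. Exactly 2 were found in 35.3% and 25.7%, and 1 in 34.7% and 37.4%. None of the 5 was detected in 9.22% of the Control-AM and 29.0% of the Tumor-AM barcodes of these clusters. In B and G of Tumor-AM, 88.3% of 2359 barcodes had none and 0.13% had 3 or more. In the cluster of other cell types, 8 of 15 Control-AM barcodes (53.3%, 26.6 to 78.7) and 4 of 26 Tumor-AM barcodes (15.4%, 4.36 to 34.9) had a UMI of at least 1 of the 5, against 90.8% and 71.0% in the AM clusters other than B and G. For 2 or more, these were 4 of 15 and 0 of 26, against 56.1% and 33.6%.

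**Figure D5:**
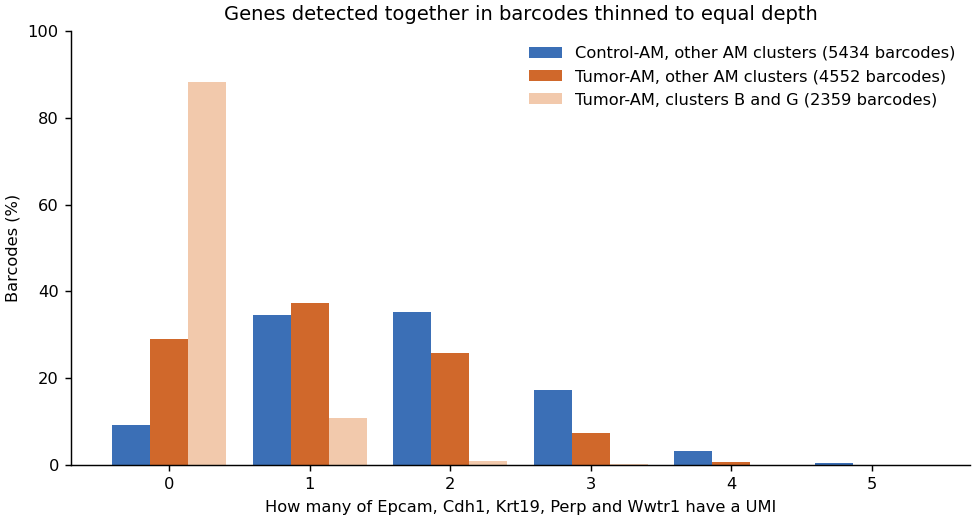
Share of thinned barcodes (percent) in which 0 to 5 of *Epcam*, *Cdh1*, *Krt19*, *Perp* and *Wwtr1* had a UMI. The Tumor-AM barcodes of clusters B and G pile up at 0 (88.3%), and the Control-AM barcodes of the other AM clusters are centred on 1 and 2.

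*Krt8* and *Krt18* were under 1 CPM in AMs of both libraries. Outside cluster P, *Krt8* was at 0.12 CPM (0.053 to 0.24) in Control-AM and 0.26 CPM (0.16 to 0.42) in Tumor-AM, with at most 2 UMIs in a barcode, and *Krt18* at 0.12 CPM (0.053 to 0.24) and 0.13 CPM (0.060 to 0.25). In cluster P of Tumor-AM, 33 barcodes held 22 of the 40 *Krt8* UMIs, at 52.7 CPM (33.0 to 79.7), and 7 of them had one. The 3 Tumor-AM barcodes richest in *Krt8*, with 9, 4 and 3 UMIs, were all in P and held 83, 160 and 36 UMIs of the 6 fibroblast markers but 7, 1 and 2 of *Chil3*. The fibroblast markers summed to 5000 CPM in P of Tumor-AM, where all 6 were detected, and to 245 CPM in P of Control-AM, where 4 were. Their part in the *Krt8* ratio was not tested further, but without P that log2 ratio was 1.09 (−0.18 to 2.50) on 8 UMIs in Control-AM and 18 in Tumor-AM, still past 2-fold but with an interval that takes in 0. Cluster P also held 31 *Wwtr1* UMIs of Tumor-AM, at 74.2 CPM (50.4 to 105), which is 31 of 3568.

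Other keratins did not follow a single pattern. *Krt79*, a type II keratin, was the other abundant one, at 495 CPM in Control-AM and 306 CPM in Tumor-AM, against 471 and 189 CPM for *Krt19*, with a log2 ratio of −0.69 (−0.72 to −0.67). Of 11 other keratins, 6 had enough UMIs for a ratio, none was higher and 2 were lower by 2-fold or more, *Krt4* at 4.83 and 1.26 CPM and *Krt15* at 3.70 and 0.86 CPM, where 6.02% of all genes were higher and 6.91% lower. The basal keratins *Krt5*, *Krt14* and *Krt17* had 1 UMI between them. Of the type II keratins in the list, *Krt79* was the abundant one beside the type I *Krt19*.

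In both libraries, 5 of the cytoplasmic partners of E-cadherin were carried at or above the level of *Cdh1* itself. The catenins *Ctnnb1* (410 and 449 CPM), *Ctnnd1* (87.6 and 87.8 CPM) and *Ctnna1* (77.5 and 85.5 CPM) had log2 ratios between 0.00 and 0.14. *Jup*, which encodes plakoglobin, was at 45.3 and 32.0 CPM and *Afdn*, which encodes afadin, at 41.4 and 25.5 CPM, with log2 ratios of −0.50 (−0.58 to −0.42) and −0.70 (−0.79 to −0.61). Of the 10 adherens junction partners, 8 could be compared, with a median of 0.14, none lower and 1 higher by 2-fold or more (*Vcl*, vinculin, at 3.18 and 7.41 CPM), against 6.91% and 6.02% of all genes. Of the 15 tight junction and desmosome genes described here, 11 were under 1 CPM in both libraries (among them *Dsp*, *Dsg2*, *Cldn3* and *Cldn4*), as were 65% of all 32285 genes listed, and 5 of 10 compared were lower by 2-fold or more (*Cldn1*, *Cldn7*, *Ocln*, *Ppl* and *Evpl*) and none higher, against 6.91% and 6.02% of all genes. *F11r*, the junctional adhesion molecule A, at 163 and 190 CPM, and *Ocln*, which encodes occludin, at 10.1 and 4.30 CPM were the 2 of these above 10 CPM in either library.

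Among the 18 epithelial regulators and surface genes described here, which drive or accompany the epithelial state elsewhere, 14 were under 1 CPM in both libraries, a share not far from the 65% of all genes. *Esrp1*, *Esrp2*, *Grhl2*, *Ovol1*, *Elf3*, *Ehf*, *Foxa1* and *Foxa2* had at most 7 UMIs in a library. *Cd24a*, a surface glycoprotein, at 127 and 156 CPM and *Spint1*, a protease inhibitor, at 44.8 and 33.2 CPM were the 2 of these above 10 CPM. Of the 8 compared, 2 were lower by 2-fold or more (*Rab25* and *Muc1*) and none higher, against 6.91% and 6.02% of all genes. The mesenchymal genes *Vim* (2875 and 2750 CPM) and *Zeb2* (440 and 570 CPM) were abundant in both libraries, and *Fn1*, fibronectin, was higher in Tumor-AM at 918 against 359 CPM, with 62896 of its 63177 Tumor-AM UMIs outside cluster P. *Twist1* had 42 UMIs in Tumor-AM against 0, of which 39 were in 5 barcodes of cluster P, where the fibroblast markers lay.

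The Hippo pathway was present around *Wwtr1* on the kinase side. *Mob1a* (193 and 211 CPM), *Stk4* (75.3 and 65.9 CPM), *Sav1* (63.5 and 71.9 CPM), *Mob1b* (51.1 and 48.9 CPM), *Lats1* (33.9 and 29.5 CPM), *Lats2* (22.3 and 27.6 CPM), *Stk3* (16.2 and 16.9 CPM) and *Nf2* (13.0 and 14.8 CPM) encode the kinases and their adaptors, and none differed by 2-fold. *Yap1*, the paralog of *Wwtr1*, had 5 UMIs in Control-AM and 17 in Tumor-AM, or 0.077 and 0.25 CPM, and the TEAD genes lay between 0 and 0.78 CPM. Of 15 pathway genes compared, 0 were lower and 4 higher by 2-fold or more, against 6.91% and 6.02% of all genes, with a median of 0.18. Of these 4, 3 lay mostly in cluster P, which held 43 of the 54 Tumor-AM UMIs of *Tead1*, 46 of 47 of the target gene *Ccn1*, and 12 of 17 of *Yap1*, against 7 of 19 of *Amotl2*. Outside P, *Tead1* had 10 UMIs in Control-AM and 11 in Tumor-AM, *Ccn1* 3 and 1, *Yap1* 5 and 5, and *Amotl2* 2 and 12. For *Perp*, the p53 targets *Cdkn1a* (736 and 743 CPM), *Mdm2* (124 and 111 CPM) and *Bax* (227 and 195 CPM) and *Trp53* itself (61.7 and 53.7 CPM) did not differ by 2-fold. Its relative *Pmp22* was at 1.02 CPM in Control-AM and 32.8 CPM in Tumor-AM, a log2 ratio of 5.01 (4.66 to 5.39), and 2236 of its 2259 Tumor-AM UMIs were outside P, while *Emp3* (277 and 291 CPM) and *Emp1* (40.9 and 44.7 CPM) had log2 ratios of 0.07 and 0.13, and *Emp2* was lower, at 1.85 and 0.80 CPM.

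The genes whose pattern over clusters was most like each member's were found by the Pearson correlation of log2(CPM + 1) over 27 cluster and library sums, which share libraries and depth and are given as a description. *Krt19*, *Perp* and *Wwtr1* had like patterns, with r of 0.95 between *Krt19* and *Perp*, 0.91 between *Perp* and *Wwtr1* and 0.90 between *Krt19* and *Wwtr1*. *Epcam* and *Cdh1* had 0.80, and *Sftpc* and *Sftpa1* 0.13, while *Sftpc* had 0.66 with *Krt19* and 0.61 with each of *Perp* and *Wwtr1*. Over single thinned barcodes of the AM clusters other than B and G the order was another one, with r of 0.15 in Control-AM and 0.21 in Tumor-AM between *Sftpc* and *Sftpa1*, 0.03 and 0.10 between *Krt19* and *Perp*, and 0.02 in both between *Epcam* and *Cdh1*, all weak and from sparse counts. The 5 genes nearest to *Krt19* were *Vstm2a* (0.97), *Fam89a* (0.97), *Wfdc10* (0.95), *Cpne8* (0.95) and *Perp* (0.95). For *Wwtr1* they were *Sema3e*, *Myo6*, *Tanc2*, *Tcaf1* and *Cpne8* (0.93 to 0.96), and for *Perp* *Fam89a*, *Patj*, *Krt19*, *Vstm2a* and *Myo6* (0.95 to 0.96). *Epcam* had another set, *Gal* (0.93), *Klk8* (0.91), *Trim47* (0.89), *Igflr1* (0.89) and *Serpinb1a* (0.86). *Gal*, the neuropeptide galanin, was at 77.8 CPM in Control-AM and 16.6 CPM in Tumor-AM. *Cdh1* was nearest to *Fam129a* (0.88), *Rnf180*, *Alox5*, *Creb5* and *Luzp1*. *Sftpc* reached at most 0.74 (*Htr2c*, then *Syne1*, *Sema3e*, *Ftsj3* and *Tc2n*), and *Sftpa1* at most 0.77 (*Ociad1*, then *Mydgf*, *Rrp1*, *Dhps* and *Erlec1*). *Krt8* (nearest *Sp110*, *Dhrs7*, *Stat2*, *Crlf2* and *March1*) and *Krt18* (nearest *Nr2f6*, *Tgfbrap1*, *Abca3*, *Stx3* and *Mex3c*) reached at most 0.62 and 0.67 on very few UMIs.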

How the data were processed

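The authors deposited raw UMI counts per gene and barcode for each library, made with Cell Ranger (4.0.0 in the submitters' processing notes, which also name bcl2fastq 2.20 and mm10, while the paper's methods name another version) and not normalized or cleared of doublets. The hashtag reads were not used here. Of 32285 identifiers, 32158 had a symbol. The members and lists were chosen with earlier results of these data known.

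From the counts, UMIs were summed over barcodes with at least 500 genes and at most 10% mitochondrial UMIs, and scaled to CPM. Intervals were exact (Poisson for levels, conditional binomial for ratios, Clopper-Pearson for shares, 95%), and a gene needed 20 UMIs over both libraries to be compared. Zero counts were set to 3 where a median or a count over genes needed a ratio. No test was run, since each condition had a single library. For clustering, ribosomal and receptor segment genes and the members were left out, counts were scaled to 10000 per barcode and log-transformed, and 2000 variable genes, 100 components, a mutual nearest neighbour correction written after Scanorama (20 neighbours, kernel 15), a Jaccard graph of 15 neighbours and Leiden at a resolution of 1 were used. A first clustering on scaled genes was replaced, after its cluster sizes were seen, because the described processing has no scaling. A cluster was taken as another cell type when 3 or more markers of other types and no AM marker were among its 10 leading genes, and as tumor-enriched at a weighted share of 90%. Scrublet's automatic threshold called 0 doublets in each library and was taken not to have worked, so doublets were kept, and the 274 Control-AM and 410 Tumor-AM barcodes with the highest scores were left out as an alternative. The named genes are the members, genes of the lists at 10 CPM or more in either library, those needed to describe a list or a cluster, and the 5 genes most like each member. Some genes of the lists are not reported here and were left out of the list counts. The intervals were run on simulated Poisson and binomial counts, the models they assume. This checks the computation and says nothing about counts that vary more than that between barcodes. The work used Python 3.11.15, numpy 2.4.6, scipy 1.17.1, pandas 2.3.3, scanpy 1.11.5, leidenalg 0.10.2 and matplotlib 3.10.9.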

Additional observations from a re-analysis of the deposited data

How the results depend on the processing

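The alternatives changed the quality filter, the doublets, the scaling, the centring, the barcodes richest in a member, the cells of other types, the tumor-enriched clusters and the barcodes shared between the libraries, the last 2 added after the data were seen, as was leaving out other types from the comparison of clusters. The number of members at least 2-fold lower in Tumor-AM ran from 3 to 6 under the other settings, since *Perp*, *Wwtr1* and *Sftpa1* sat at the 2-fold line and, with no quality filter, *Sftpc* moved to −1.09 and *Sftpa1* to −1.38, and was 1 without the tumor-enriched clusters, where the median over the members was −0.51. *Epcam* ranged from −3.67 to −3.05 and *Krt19* from −1.33 to −0.77. *Krt8* stayed positive, from 1.08 to 2.65, but without the cells of other types its interval took in 0, at 1.09 (−0.18 to 2.50). With at least 10 UMIs in place of 5, 0 members had more than 50% of their UMIs in such barcodes. No value that was past 2-fold changed sign. Resolutions of 0.5 and 1.5 gave 9 and 24 clusters of at least 50 barcodes and no library correction gave 15, and the *Epcam* ratio outside the tumor-enriched clusters was then −2.95, −3.08 and −2.86. That of *Krt19* was −0.68, −0.80 and −0.48. No paired analysis was possible because each condition had 1 library. Depth limits *Krt8*, *Krt18* and *Sftpa1*, and shares of barcodes without a UMI are not shares of cells without the transcript.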

Other observations

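Among the marker lists, some genes named for epithelial cells were carried by these barcodes without most of their companions. *Hopx*, an AT1 marker, was at 8.20 CPM in Control-AM and 45.5 CPM in Tumor-AM, with a log2 ratio of 2.47 (2.34 to 2.61), while the AT1 marker *Ager* was at 5.67 and 2.81 CPM. *Tppp3*, from the ciliated cell list, was at 116 and 200 CPM, whereas the other 4 genes of that list had at most 22 UMIs in a library. In the left-out barcodes *Ager* was at 28.4 CPM in Control-AM and 15 CPM in Tumor-AM, 5-fold and 5.34-fold above the kept barcodes.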
